A study of Mus musculus with 6 samples.

Results

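The genes described here are 10 members of the p53 pathway and of the machinery of cell cycle arrest, given by symbol: Trp53, Mdm2, Cdkn1a, Cdkn2a, Cdkn2b, Ccng1, Bax, Bbc3, Zmat3 and Sesn2. All 10 were present among the 25755 genes of the table, and none was lost to a filter. Bulk RNA sequencing had been done on whole optic nerves of 6 Nf1flox/flox; hGFAP-Cre mice, of which 3 had a sham operation (incision without crush) and 3 had optic nerve crush (ON-CR). Surgery was done at 6 weeks of age and nerves were analyzed at 12 weeks, an age that the sample labels give as 3 months. Both groups carried the same alleles: Cre recombinase under the human GFAP promoter removes Nf1, the gene for the RAS inhibitor neurofibromin, from neuroglial progenitors and from the cells that arise from them. The other cells of the nerve, such as microglia and endothelium, keep Nf1. By the labels, each library came from a separate mouse, mice 1 to 3 being sham and mice 4 to 6 ON-CR. The paper's methods for RNA extraction and real-time PCR describe pooling of mice per sample. Whether this held for sequencing is not stated. The comparison asked whether genes of the p53 response and of cell cycle arrest differed in the nerve 6 weeks after injury.

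The transcription factor p53, encoded by Trp53, is held at a low protein level by the ubiquitin ligase Mdm2 and accumulates when DNA damage, oncogene activity or other stress blocks that degradation. It then switches on genes that stop the cell cycle, repair DNA or start cell death, and it also switches on Mdm2, which closes a feedback loop. Cdkn1a encodes p21, the main inhibitor of cyclin-dependent kinases (CDKs) under p53, whereas Cdkn2a and Cdkn2b encode inhibitors that act on CDK4 and CDK6 largely outside p53 and mark senescent cells. In glial tumors that lose Nf1, loss of Cdkn2a or of p53 function is known from high-grade disease, whereas optic gliomas are low-grade. Because p53 is controlled mainly through protein stability, messenger RNA of its targets is the usual readout of its activity.

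The promoters of the members differed in whether they hold the letters that p53 binds. RefSeq sequence of GRCm38.p6 from 250 bases before to 50 bases after each annotated start was available for 9 of the 10 members, in 13 windows, Zmat3 being the member without an entry. A match to the p53 half-site consensus, the 10-base unit of which 2 make up a full site, was found on either strand in 5 windows of 5 genes, against 8.36% of 32851 promoter windows of the genome. The stretches are shown because they hold the letters that p53 is known to prefer, in genes whose messenger RNA is described below. In the first 4, capitals mark the half-site, and the strand is that of the gene.
Bax, chr7:45467070-45467119, minus strand: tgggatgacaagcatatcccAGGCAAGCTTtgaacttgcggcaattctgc
Mdm2, chr10:117710915-117710964, minus strand: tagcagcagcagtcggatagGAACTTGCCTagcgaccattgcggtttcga
Ccng1, chr11:40755442-40755491, minus strand: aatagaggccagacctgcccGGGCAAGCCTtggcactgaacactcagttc
Trp53, chr11:69580264-69580313, plus strand: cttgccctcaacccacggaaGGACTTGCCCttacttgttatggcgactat
Cdkn1a, chr17:29090886-29090957, plus strand: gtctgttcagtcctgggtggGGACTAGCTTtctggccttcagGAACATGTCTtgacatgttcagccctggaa
In the Cdkn1a stretch, capitals mark both half-sites of the 1 match among the members to the full-site consensus with a spacer of 0 to 13 bases, which 0.0731% of all windows held. These half-sites began 73 and 51 bases before the upstream RefSeq start of Cdkn1a, with a spacer of 12 bases. The window of its downstream start, chr17:29093519-29093818, held no half-site. The CATG of the second half-site was followed by another at the spacing CATGNNNNNNCATG, which 0.712% of all windows held and no window of another member did. The 10 letters around this further CATG directly followed the second half-site. They departed from the consensus at their first letter only, and the search counted exact matches only. The half-sites of Bax, Mdm2, Ccng1 and Trp53 began 201, 186, 185 and 75 bases before their starts. No half-site was found in the windows of Cdkn2a, Cdkn2b, Bbc3 and Sesn2, which says only that these letters were not in those windows. Binding of p53 was not measured.

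Depth lay between 17414091 and 23621006 estimated reads per library, where a normalized value of 2.66 to 3.18 stood for 3 reads. Markers of the optic nerve were present, with Mbp, the myelin basic protein gene, among the most abundant transcripts. Markers of the cell types of the nerve differed between groups. Of 8 oligodendrocyte markers, 6 were lower after ON-CR by limma at an adjusted p at or under 0.05, and their summed value was 1262928 to 1813090 in sham and 612657 to 722809 in the ON-CR group. The summed value of 10 microglia and macrophage markers was 15994 to 20902 in the sham group and 29835, 20210 and 30241 in ON-CR mice 4, 5 and 6. Of these markers, 7 had a log2 fold change above 0, whereas P2ry12, Tmem119 and Sall1 were below 0. In bulk RNA, fewer cells of a type and less RNA per cell cannot be told apart, and the part of cell composition in any result below was not tested. Sex-linked transcripts also separated the groups: the X-inactivation RNA Xist was at 16.7, 2.14 and 30.9 in the sham group and at 2708, 6357 and 6131 in the ON-CR group, whereas the Y-linked gene Ddx3y was at 1645, 1291 and 1544 in the sham group and at 976, 4.19 and 0 in the ON-CR group. The library of ON-CR mouse 4 held both transcripts at high levels, unlike the other 5 libraries, and the source of this was not tested. Sex and surgery cannot be told apart.

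None of the 10 members passed the test between ON-CR and sham mice. By limma on log2(value + 1), with Benjamini-Hochberg adjustment over all genes, 0 of 10 members had an adjusted p at or under 0.05, against 2.10% of all genes (0.971% higher and 1.13% lower). At an unadjusted p at or under 0.05 the count was also 0 of 10, against 15.6% of all genes, and it was 3 of 10 under voom with sample quality weights, namely Trp53, Zmat3 and Sesn2, against 18.8% of all genes under voom. Without ON-CR mouse 5 it was 3 of 10, namely Cdkn1a, Cdkn2a and Sesn2, against 17.0% of all genes. At an unadjusted p at or under 0.1, Sesn2 and Zmat3 passed, against 23.7% of all genes. The lowest adjusted p was 0.325, for Sesn2. The median log2 fold change of the members was 0.12 and that of all genes 0.03, and 7 of 10 members had a fold change above 0, against 52.8% of all genes. Sham and ON-CR values were fully apart, with no overlap, for 2 of 10 members, Sesn2 (higher) and Ccng1 (lower, with a fitted sign that turned under equal library totals and voom), against 21.6% of all genes. For 7 of the 10 members the 95% interval of the fold change lay within 2-fold in either direction, against 47.8% of all genes and 81.1% of 14436 genes with a mean value of at least 50, so that a change of 2-fold or more was outside their intervals. The exceptions were Cdkn2a, Cdkn2b and Bbc3, the members with the lowest values. With 3 mice against 3, no exact permutation p can be under 0.1.

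**Figure D1:**
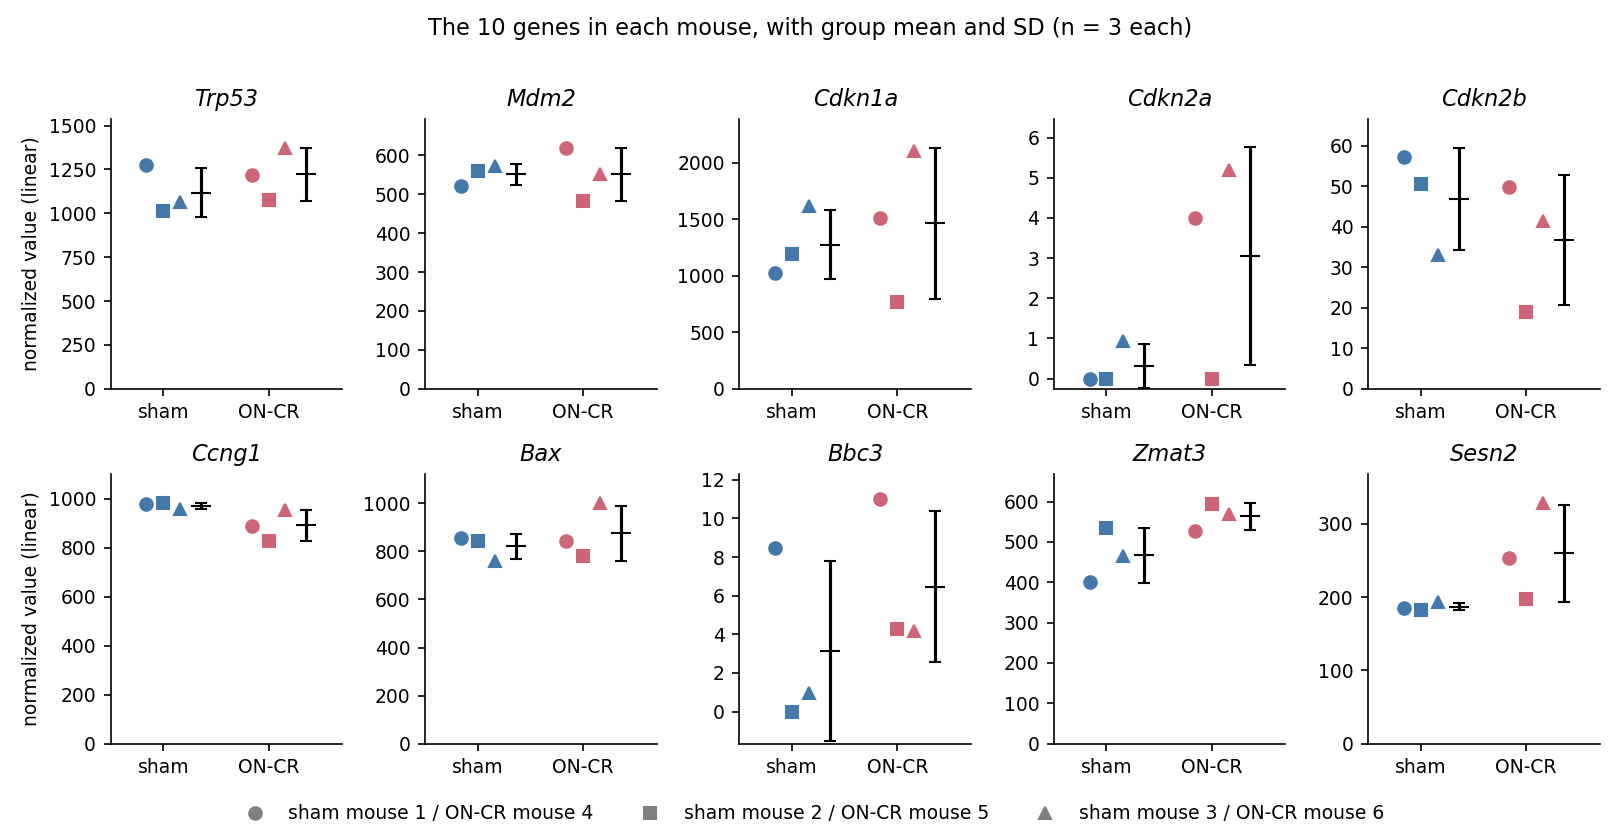
Normalized value (linear axis, 1 panel per gene with its own scale) of the 10 genes in each of the 3 sham mice (blue) and the 3 ON-CR mice (red), with the group mean and SD in black. The groups are apart for Sesn2, higher in ON-CR mice, and for Ccng1, lower in ON-CR mice in these units (its fitted sign turned under equal library totals and voom), and overlap for the other 8. Marker shapes name the mice and pair none of them.

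Trp53 itself was well expressed in every nerve and did not separate the groups. Values per mouse, in normalized units, were 1275, 1015 and 1065 (sham mice 1, 2 and 3), against 1219, 1074 and 1374 (ON-CR mice 4, 5 and 6). The highest value was that of ON-CR mouse 6, the lowest that of sham mouse 2, and the groups overlapped. The means were 1119 ± 138 and 1222 ± 149.6 (SD, n = 3 each), with log2 fold change 0.13 (standard error, SE, 0.14, 95% interval -0.18 to 0.43, limma adjusted p = 0.712). The gene (ENSMUSG00000059552.13) lies on the plus strand of GRCm38 at chr11:69580359-69591873.

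Mdm2, the ubiquitin ligase that degrades p53 and is induced by it, had nearly equal means in the groups. Values were 520.0, 560.4 and 573 in the sham group and 619, 483 and 553 in the ON-CR group. Both the highest and the lowest value belonged to ON-CR mice, with the sham mice between them. The means were 551 ± 27.7 and 552 ± 67.9 (SD, n = 3 each). Log2 fold change was -0.0037 (SE 0.14, 95% interval -0.31 to 0.30, limma adjusted p = 0.993), and its sign turned under other scalings, for example to 0.12 with equal library totals. Mdm2 (ENSMUSG00000020184.15) lies at chr10:117688875-117710758 on the minus strand.

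Cdkn1a, the gene for p21, was the most variable of the abundant members. Its values were 1023, 1188 and 1616 in the sham group and 1513, 771 and 2106 in the ON-CR group. ON-CR mouse 6 had the highest and ON-CR mouse 5 the lowest of the 6 values, so the sham mice lay wholly inside the range of the ON-CR mice. The means were 1276 ± 306 and 1463 ± 669 (SD, n = 3 each). On the log2 scale the change was 0.11 (SE 0.31, 95% interval -0.59 to 0.80, limma adjusted p = 0.908). It was -0.21 without ON-CR mouse 6, -0.04 without sham mouse 1 and 0.51 without ON-CR mouse 5 (limma adjusted p = 0.816, 0.981 and 0.222), so its direction depended on single mice. The interval reached from a 0.666-fold to a 1.74-fold level. Cdkn1a (ENSMUSG00000023067.14) lies at chr17:29090976-29100727 on the plus strand, and 7.68% of its exon bases overlap a gene on the other strand, AC167363.2, which was not in the table.

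Cdkn2a encodes 2 proteins from overlapping reading frames, the CDK4 and CDK6 inhibitor p16INK4a and the Mdm2 inhibitor p19ARF, and a value per gene does not separate them. It was near the limit of detection. Values of 0, 0 and 0.939 in sham mice stood for 0, 0 and 1 reads, and values of 3.99, 0 and 5.19 in the ON-CR group stood for 4, 0 and 5 reads. ON-CR mice 4 and 6 had more reads than any sham mouse, ON-CR mouse 5 had none, and the groups overlapped. Each sham library was under the floor of 3 reads. Summed over the mice, 9 reads against 1 gave a ratio of 10.6 per sequenced read, with an exact 95% interval of 1.46 to 463 that covers counting error only and not the difference between mice. The log2 fold change of 1.33 (SE 0.91, limma adjusted p = 0.532) had a 95% interval from -0.70 to 3.36. Over mice, this interval included 0, so no difference was shown.

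Cdkn2b encodes p15INK4b, an inhibitor of the same kinases that is best known as a target of TGF-beta signaling. It lies next to Cdkn2a on chromosome 4, at chr4:89306299-89311039 against chr4:89274471-89294653, both on the minus strand and 11645 bases apart (ENSMUSG00000073802.5 and ENSMUSG00000044303.6). Values were 57.3, 50.5 and 32.9 in the sham group and 49.9, 18.9 and 41.5 in the ON-CR group. The lowest value was that of ON-CR mouse 5, the highest that of sham mouse 1, and the groups overlapped. The means were 46.9 ± 12.6 and 36.8 ± 16.0 (SD, n = 3 each), with log2 fold change -0.41 (SE 0.41, 95% interval -1.33 to 0.50, limma adjusted p = 0.686). Without ON-CR mouse 5 it was -0.0049.

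Ccng1 encodes cyclin G1, which despite its name drives no phase of the cycle: it recruits a phosphatase to Mdm2 and is a classic p53 target. Values were 978, 981 and 958 in the sham group and 890.4, 829 and 954 in the ON-CR group. Every ON-CR mouse lay below every sham mouse, although ON-CR mouse 6 lay close to sham mouse 3. The means were 972 ± 12.6 and 891 ± 62.5 (SD, n = 3 each), and the fitted log2 fold change was -0.13 (SE 0.11, 95% interval -0.38 to 0.12, limma adjusted p = 0.641). Its sign was positive with equal library totals (0.00041) and under voom (0.01), and the exact two-sided permutation test gave p = 0.1, the smallest it allows. Ccng1 (ENSMUSG00000020326.7) lies at chr11:40748552-40755311 on the minus strand.

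The members that act in cell death were Bax, whose protein permeabilizes the mitochondrial outer membrane, and Bbc3, the gene for the BH3-only activator PUMA. Bax values were 855, 845 and 761 in the sham group and 842, 781 and 1003 in the ON-CR group. ON-CR mouse 6 stood above the sham mice and the other ON-CR mice lay within their range. The means were 820.4 ± 51.4 and 875 ± 115 (SD, n = 3 each). Log2 fold change was 0.09 (SE 0.13, 95% interval -0.21 to 0.38, limma adjusted p = 0.809), and -0.02 without ON-CR mouse 6. Bax (ENSMUSG00000003873.11) lies at chr7:45461697-45466898 on the minus strand. The same-strand gene Gm45808 overlaps 12.2% of its exon bases, and reads there could have been assigned to either.

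Bbc3 (ENSMUSG00000002083.13), which lies on the same chromosome at chr7:16308393-16318205 on the plus strand, was low. Values were 8.49, 0 and 0.939 in the sham group and 11.0, 4.26 and 4.15 in the ON-CR group. Sham mouse 1 stood above ON-CR mice 5 and 6, and the groups overlapped. In reads, the sham mice had 8, 0 and 1, and the ON-CR mice had 11, 4.06 and 4. The summed 19 reads against 9 gave a ratio of 2.48 per sequenced read, with an exact 95% interval of 1.07 to 6.22 for counting error only. Over mice, the log2 fold change was 1.38 (SE 0.88, 95% interval -0.58 to 3.34, limma adjusted p = 0.499).

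Zmat3 encodes an RNA-binding zinc finger protein that p53 induces and that takes part in tumor suppression through splicing. Values were 400.1, 535 and 465 in the sham group and 527, 595 and 568 in the ON-CR group. ON-CR mice 5 and 6 lay above every sham mouse, and ON-CR mouse 4 lay just under sham mouse 2. The means were 467 ± 67.7 and 564 ± 34.2 (SD, n = 3 each), with log2 fold change 0.28 (SE 0.14, 95% interval -0.04 to 0.60, limma adjusted p = 0.387). The unadjusted p was 0.0814 and the exact permutation p 0.200. The log2 fold change was above 0 in each alternative run, from 0.17 without sham mouse 1 to 0.41 with equal library totals. Zmat3 (ENSMUSG00000027663.12) lies at chr3:32334792-32366014 on the minus strand.

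Sesn2 had the lowest p of the members. It encodes sestrin 2, an inhibitor of mTORC1 signaling that is induced by p53 and, independently of p53, by the integrated stress response through ATF4. Values were 185, 183 and 193 in the sham group and 254, 197 and 329 in the ON-CR group. The sham mice were nearly equal, every ON-CR mouse was above them, and ON-CR mouse 5 was above the highest sham mouse by a small margin. The means were 187 ± 5.53 and 260.2 ± 66.2 (SD, n = 3 each). On the log2 scale the change was 0.44 (SE 0.20, 95% interval -0.0041 to 0.89, unadjusted p = 0.0518, limma adjusted p = 0.325), and the exact permutation test gave p = 0.1, the smallest it allows. Over the alternatives the log2 fold change was from 0.26 without ON-CR mouse 6 to 0.63 under voom, with the adjusted p from 0.107 without ON-CR mouse 5 to 0.627 without ON-CR mouse 6. Sesn2 (ENSMUSG00000028893.8) lies at chr4:132492032-132510501 on the minus strand.

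**Figure D2:**
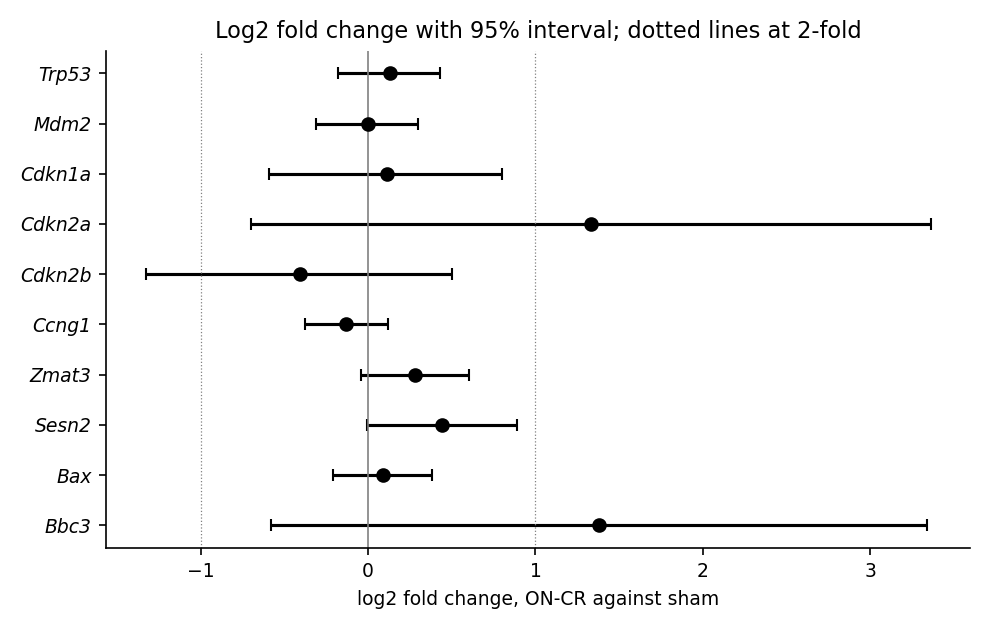
Log2 fold change of ON-CR against sham (x axis, log2 scale) of the 10 genes, with limma's 95% interval as bars and dotted lines at a 2-fold change. All 10 intervals include 0, and 7 lie between the dotted lines. Those of Cdkn2a, Cdkn2b and Bbc3 reach beyond them.

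Levels of different genes are compared here as normalized value per kilobase of exon, as mean ± SD over the 6 mice, and against a median over all genes of 29.1. Bax was highest at 538 ± 53.9 per kilobase, followed by Cdkn1a at 385 ± 134, Trp53 at 289 ± 34.8 and Ccng1 at 265 ± 17.1. From Bax down to Ccng1, the range of each gene over mice overlapped that of the next in order. Within mice, Bax was above Cdkn1a in 6 of 6, Cdkn1a above Trp53 in 4 and Trp53 above Ccng1 in 4. Mdm2 followed at 109 ± 9.12 per kilobase and Sesn2 at 64.4 ± 16.7, each apart from its neighbors in range. Zmat3 at 45.1 ± 6.25 per kilobase overlapped Cdkn2b at 30.1 ± 10.1 in range and was above it in 5 of 6 mice. Bbc3 at 2.26 ± 2.00 and Cdkn2a at 1.44 ± 1.97 per kilobase overlapped each other and were far below the rest. Stretches of 50 bases that other genes share made up 8.51% of Bax, 8.49% of Cdkn1a and at most 3.95% of each other member, and reads there could have been assigned to more than 1 gene.

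Most members had their lowest ON-CR value in the same mouse. Relative to the sham mean, the median log2 difference of the 10 members was 0.18 in ON-CR mouse 4, -0.13 in mouse 5 and 0.30 in mouse 6. Of the 10 members, 9, 3 and 8 were above the sham mean in these mice. ON-CR mouse 5 had the lowest value of the ON-CR mice for 7 of the 8 members with a mean value of at least 10, against 38.8% of 19650 genes above the same level, with Zmat3 as the exception. Order 6 above 4 above 5 was seen in 5 of the 8, against 20.7% of those genes. ON-CR mouse 5 was also the ON-CR mouse with the lowest summed microglia markers (20210, against 29835 and 30241) and lymphocyte markers (202, against 383 and 1403). It was also lowest for infiltrating myeloid, oligodendrocyte, precursor, endothelial, pericyte and smooth muscle, meningeal fibroblast and Schwann cell markers. The other marker lists had another ON-CR mouse lowest. The part of these cell types in the order was not tested. The summed neuronal markers of ON-CR mouse 5 were at 6098, against 1244 to 3030 in the other 5 mice, which was likewise not tested. Of these markers, Snap25 (3193), Nefl (1666), Nefm (397) and Rbfox3 (147) were highest in ON-CR mouse 5. Rbpms, Sncg and Pou4f1 lay within the range of the other mice.

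Spread within groups differed for several members. The SD of log2(value + 1) was 0.04 in sham and 0.37 in the ON-CR group for Sesn2, a ratio of 8.75 that was exceeded by 1.44% of genes with a mean value of at least 50. For Ccng1 the SDs were 0.02 and 0.10, with a ratio of 5.39. Cdkn1a had SDs of 0.34 and 0.74, so it varied in both groups, whereas Trp53 had 0.17 and 0.18, close to the median gene at 0.18 and 0.19. Zmat3 went the other way, with 0.21 in sham and 0.09 in the ON-CR group. With 3 mice per group these SDs are themselves imprecise.

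Likeness of pattern was measured as Pearson's r of log2(value + 1) over the 6 libraries, among 14435 genes with a mean value of at least 50. The genes most like Cdkn1a were Tagln (r = 0.985), which encodes the actin-binding protein transgelin of smooth muscle, Nup98 (0.977), a nuclear pore gene, and Maml1 (0.977), a Notch coactivator. Tagln had values of 641, 671 and 945 in the sham group and 797, 515 and 1143 in the ON-CR group, with the same highest and lowest mouse as Cdkn1a. The genes most like Trp53 were Nck2 (r = 0.993), Zfp605 (0.993) and Trafd1 (0.992). An r above 0.9 was reached with Cdkn1a by 129 genes and with Trp53 by 138. With 6 libraries that share a depth each and so many genes compared, these values are a description.

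Some genes around the members did pass the test. Over 192 further genes of 11 lists on p53 control, its targets, cell death, the cell cycle, senescence and stress, 18 rose and 6 fell after ON-CR by limma at an adjusted p at or under 0.05, together 12.5% against 2.10% of all genes, with a median log2 fold change of 0.20. The lists were chosen with results of these data known. The counts are therefore a description.

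Among 22 genes that control p53, none passed the test in either direction, with a median log2 fold change of 0.13. Mdm4, the partner of Mdm2 that masks the activation domain of p53, had log2 fold change 0.09 (limma adjusted p = 0.801). The damage kinases Atm and Chek2 and the p53 phosphatase Ppm1d were each higher in every ON-CR mouse than in any sham mouse, without passing: log2 fold changes were 0.41, 0.53 and 0.43 (adjusted p = 0.339, 0.357 and 0.438). Of the 22 genes, 7 were fully apart and higher and 2 fully apart and lower, against 10.5% and 11.0% of all genes. Chek2 was at 48.8, 46.9 and 42.3 in the sham group and at 77.8, 59.8 and 64.4 in the ON-CR group. Of the same list, Trp53bp2, whose product binds p53, and the acetyltransferase gene Kat5 were lower in every ON-CR mouse without passing, at -0.52 and -0.29 (adjusted p = 0.0815 and 0.333), and both were named after their values were seen.

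Of 31 further p53 targets of arrest and DNA repair, 1 rose and 2 fell, with a median log2 fold change of 0.05. Sesn1, the sestrin gene with the closest tie to p53, fell. It was at 1438, 1222 and 1335 in the sham group and at 802, 927 and 793 in the ON-CR group, with no overlap, with log2 fold change -0.66 (SE 0.12, limma adjusted p = 0.0244). That call was lost with equal library totals (adjusted p = 0.0602) and when any mouse other than ON-CR mouse 5 was left out (adjusted p from 0.0664 to 0.145). Sesn3, the third of the family, did not pass (0.05, adjusted p = 0.920), and its sign turned without sham mouse 1 or ON-CR mouse 5. Phlda3, which encodes an inhibitor of AKT, fell from 649.6 ± 166 to 269.6 ± 36.8 (SD, n = 3 each), with log2 fold change -1.24 (SE 0.19, limma adjusted p = 0.0110). It lost the call without sham mouse 2 (adjusted p = 0.0559) or ON-CR mouse 6 (0.105). Ckap2, the gene that rose, encodes a spindle protein made in dividing cells, and went from 26.2 ± 15.0 to 126 ± 26.5, with log2 fold change 2.43 (limma adjusted p = 0.0312, and 0.214 without ON-CR mouse 6). Ckap2 was called in 13 of 17 alternatives and also lost the call without sham mouse 1, sham mouse 3 or ON-CR mouse 4. The growth arrest and damage gene Gadd45a had log2 fold change 0.11 (adjusted p = 0.891) that turned to -0.13 without ON-CR mouse 6. Gadd45b, a stress-inducible relative, was at 183, 173 and 203 in the sham group and at 339, 258 and 423 in the ON-CR group, with log2 fold change 0.84 that just missed the threshold (limma adjusted p = 0.0633, and 0.0204 under voom). Gadd45b passed in 5 of 17 alternatives, and its adjusted p was as high as 0.257, without ON-CR mouse 6.

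Of 15 further p53 targets of cell death, none rose and 1 fell, with a median log2 fold change of 0.19. This was Trp53i11, from 4576 ± 359 to 2273 ± 722 (SD, n = 3 each), with log2 fold change -1.05 (limma adjusted p = 0.0219, and 0.173 without ON-CR mouse 6). Pmaip1, the gene for the BH3-only protein NOXA, had log2 fold change 0.44 (adjusted p = 0.660). In the BCL2 family, 1 of 16 genes other than Bax and Bbc3 rose and 1 fell, with a median of 0.34. Bcl2l1, whose main product BCL-XL restrains Bax, fell from 9871 ± 719.9 to 6642 ± 221, with log2 fold change -0.57 (SE 0.11, limma adjusted p = 0.0251, lost with equal library totals at 0.0583 and without ON-CR mouse 6 at 0.136). Bcl2l1 was called in 12 of 17 alternatives, and its highest adjusted p was 0.161, without sham mouse 2. Bcl2a1b rose from 70.2 ± 26.8 to 328 ± 158, with log2 fold change 2.14 (limma adjusted p = 0.0260, and 0.190 without ON-CR mouse 6). Called in 11 of 17 alternatives, it also lost the call with the robust fit and without ON-CR mouse 4 or any sham mouse. It belongs to a set of near-identical genes expressed in hematopoietic cells and shares 49.1% of its exon bases with Gm29094, so its own share of the reads is uncertain. Of other genes that restrain Bax, Bcl2 (0.44, adjusted p = 0.177) and Mcl1 (0.42, adjusted p = 0.156, and 0.0369 under voom) were higher in every ON-CR mouse without passing, whereas Bcl2l2, named after its values were seen, was at -0.02 (adjusted p = 0.971). Voom was the only 1 of 17 alternatives in which Mcl1 passed, and its adjusted p was as high as 0.435, without sham mouse 2. None of 14 apoptosome and caspase genes passed, with a median log2 fold change of 0.08.

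Of the other CDK inhibitors and the pocket proteins that CDKs act on, 8 genes in all, Cdkn1c fell and none rose, with a median log2 fold change of -0.12. Cdkn1c encodes p57, an imprinted inhibitor that holds progenitors out of cycle. Its values were 779, 661 and 626 in the sham group and 433, 419 and 446 in the ON-CR group, with no overlap, and its log2 fold change was -0.66 (SE 0.13, limma adjusted p = 0.0336). The call was lost with equal library totals (0.0571), under voom (0.0514) and when any mouse other than ON-CR mouse 5 was left out (0.0670 to 0.144). Reads of an antisense gene, Gm44732, could overlap 30.7% of its exon bases. Cdkn1b, the gene for p27, had log2 fold change -0.35 (95% interval -0.70 to 0.0061, adjusted p = 0.329). Cdkn2c and Cdkn2d, relatives of Cdkn2a and Cdkn2b, were at 0.08 and -0.01 (adjusted p = 0.912 and 0.980), and their signs turned in several alternatives. Rb1, the gene for the retinoblastoma protein, was at 0.27 (adjusted p = 0.498).

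The genes these inhibitors act against rose in part. Of 20 cyclin, CDK and E2F genes, 3 rose and none fell, with a median log2 fold change of 0.40. Ccnd1 encodes cyclin D1, the partner of CDK4 and CDK6, and was at 1357, 1588 and 1254 in the sham group and at 3121, 3843 and 3589 in the ON-CR group. The groups were far apart, with a log2 fold change of 1.33 (SE 0.13, limma adjusted p = 0.00129), and the adjusted p stayed at or under 0.0341 in each alternative. The neighbor LTO1 on the other strand overlaps 23.4% of its exon bases. Ccnb1 and Cdk1, whose proteins form the kinase of mitosis, rose by 1.83 and 1.60 on the log2 scale (limma adjusted p = 0.0318 and 0.0288). The kinase genes Cdk4 (0.14), Cdk6 (0.49) and Cdk2 (0.19) did not pass (adjusted p = 0.639, 0.304 and 0.772), and Cdk2 turned to -0.01 without ON-CR mouse 4.

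**Figure D3:**
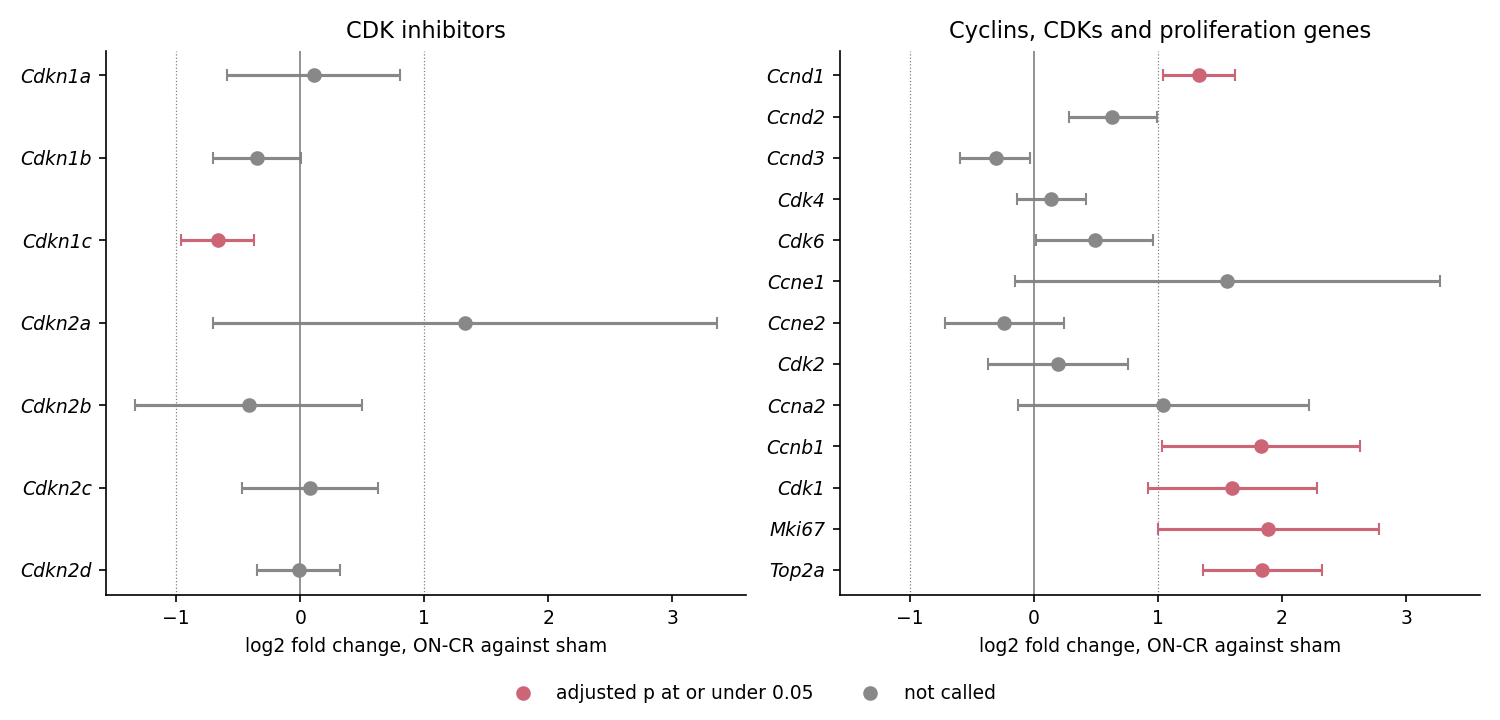
Log2 fold change of ON-CR against sham (x axis, log2 scale) with limma's 95% interval for 7 CDK inhibitor genes (left) and for cyclin, CDK and proliferation genes (right), red where the adjusted p was at or under 0.05. Of the inhibitors, Cdkn1c is called, below 0. On the right, Ccnd1, Ccnb1, Cdk1, Mki67 and Top2a are called, all above 0.

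Of 21 proliferation genes, 7 rose and none fell, with a median log2 fold change of 1.28. Mki67, the gene for the proliferation antigen Ki67, was at 43.5, 30.1 and 77.9 in the sham group and at 168, 114 and 287 in the ON-CR group, with log2 fold change 1.89 (limma adjusted p = 0.0421). Top2a, the topoisomerase of S and G2 phase, went from 103 ± 14.5 to 375 ± 96.5 (SD, n = 3 each), with log2 fold change 1.84 (adjusted p = 0.00307), and kept an adjusted p of at most 0.0429 in each alternative. The mitotic kinase gene Plk1 and Rrm2, a subunit of ribonucleotide reductase, rose by 2.19 and 1.84 on the log2 scale (adjusted p = 0.0485 and 0.0312). Plk1 was called in 7 of its 16 alternatives. It lost the call with pseudocounts of 0.5 and 0.1, with the filter on a mean value of 10, and with any mouse left out. Leaving out ON-CR mouse 6 gave an adjusted p of 0.235 for Mki67, 0.245 for Plk1, 0.142 for Rrm2, 0.208 for Ccnb1 and 0.183 for Cdk1. Each of these genes also lost the call without at least 1 other mouse, for example Mki67 without sham mouse 2 (0.195). ON-CR mouse 6, which had the highest Mki67, also had the highest Cdkn1a, and ON-CR mouse 5 had the lowest of the ON-CR mice for both genes. The summed markers of lymphocytes, microglia and macrophages, infiltrating myeloid cells, and pericytes and smooth muscle had the same order over the ON-CR mice. So did 20.7% of genes with a mean value of at least 10. The part of these cells in the values was not tested.

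Among 23 genes used as signs of senescence and its secretory program, 6 rose and 1 fell, against 0.971% and 1.13% of all genes. The median log2 fold change was 0.58, which takes no account of the direction in which each gene is used as a sign. Lmnb1, a state gene of the list, was higher in every ON-CR mouse without passing (1.57, adjusted p = 0.121). It was named after its values were seen. The genes that rose most were Ccl4 and Ccl3, chemokine genes of microglia and other myeloid cells, by 4.78 and 4.49 on the log2 scale (limma adjusted p = 0.000136 and 0.000712). By real-time PCR at the same age, the paper reports no change in Ccl4 after ON-CR in mice of this genotype. Why the measurements differ was not tested. Mmp12, a macrophage elastase gene, and Il1a, an interleukin gene, rose by 2.28 and 2.10 (adjusted p = 0.0346 and 0.0195, and 0.205 and 0.158 without ON-CR mouse 6). Both also lost the call without ON-CR mouse 4 and without any of the sham mice. The gene that fell was Igfbp4 (-1.01, adjusted p = 0.0317, and 0.206 without ON-CR mouse 6), a binding protein gene of the IGF pathway named after its values were seen. Igfbp4 also lost the call without sham mouse 2 or sham mouse 3. Ccl4, Ccl3, Mmp12 and Il1a are also known from activated myeloid cells, whose summed markers are given above, and the part of those cells was not tested. None of 15 genes that repress or activate Cdkn2a and Cdkn2b passed, with a median log2 fold change of -0.03. The Polycomb genes Bmi1 and Ezh2, which silence the locus, were at 0.02 and -0.15 (adjusted p = 0.967 and 0.734), with signs that turned in some alternatives.

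Of 14 genes of the integrated stress response, the other route to Sesn2, 2 rose and none fell, with a median log2 fold change of 0.58. Atf3, a stress-inducible transcription factor gene, was at 35.0, 46.0 and 47.0 in the sham group and at 183, 130.0 and 292 in the ON-CR group, with log2 fold change 2.15 (limma adjusted p = 0.00733, and 0.0645 without ON-CR mouse 6). Asns, the asparagine synthetase gene, was at 449, 377 and 286 in the sham group and at 564, 891 and 1254 in the ON-CR group (1.23, adjusted p = 0.0471, and 0.220 without ON-CR mouse 6). Asns was called in 9 of 17 alternatives. It lost the call with a pseudocount of 0.1, the filter on a mean value of 10, the robust fit and any mouse other than ON-CR mouse 4 left out. Atf4 itself, Ddit3 and Trib3 did not pass, at 0.54, 0.63 and 1.34 (limma adjusted p = 0.219, 0.192 and 0.275). Psat1 and Phgdh, of serine synthesis, were lower in every ON-CR mouse without passing (-0.53 and -0.28, adjusted p = 0.0616 and 0.291), and Vldlr was at -0.41 (adjusted p = 0.260). These were named after their values were seen. Without ON-CR mouse 5, Atf4, Ddit3 and Trib3 passed (adjusted p = 0.0232, 0.0466 and 0.0200), whereas Sesn2 did not (0.107). In Sesn2, Atf4, Ddit3, Trib3 and Atf3 alike, ON-CR mouse 6 was highest and ON-CR mouse 5 lowest of the ON-CR mice, an order also seen in Trp53, Cdkn1a, Ccng1 and Bax and in 20.7% of genes with a mean value of at least 10, and Asns had mouse 4 lowest.

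**Figure D4:**
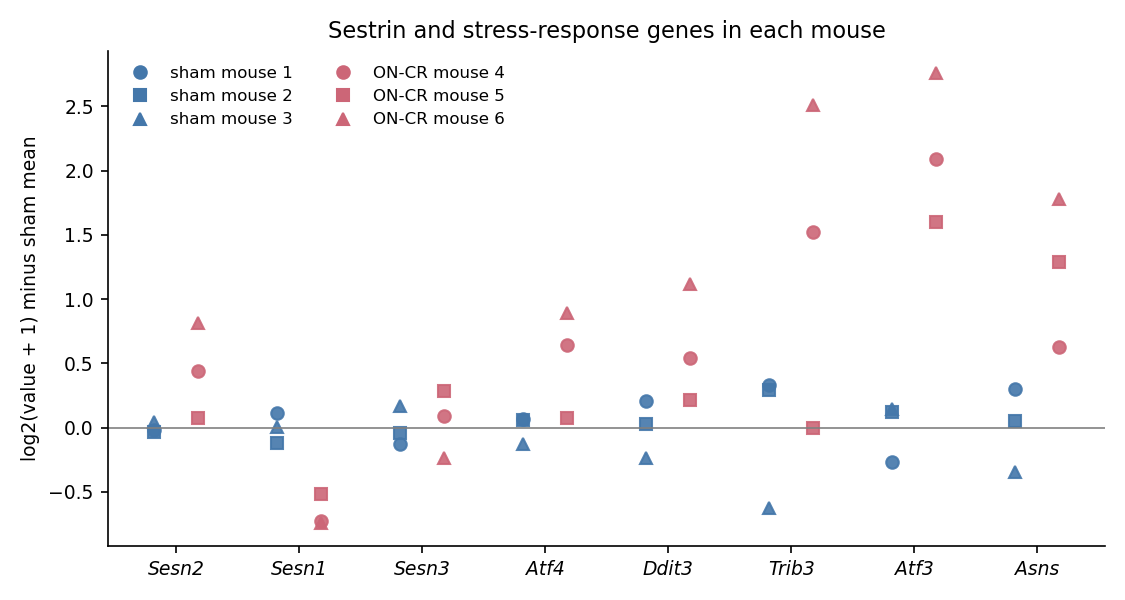
Log2(value + 1) minus the sham mean (y axis) for the sestrin genes and 5 stress-response genes in each sham mouse (blue) and each ON-CR mouse (red). Sesn1 lies below 0 in all 3 ON-CR mice, whereas Sesn2 lies above the sham mice, with ON-CR mouse 6 highest and mouse 5 close to the sham values.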

How the data were processed

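Optic nerve RNA of 3 sham and 3 ON-CR mice was sequenced, and samples were grouped by their labels. Per the labels, 10 ng of total RNA from perfused mice entered a SMARTer Ultra Low library. The authors aligned and quantified reads with DRAGEN 3.9.3-8 against the Ensembl mouse assembly (release 101), took gene models from release 102 (mm10) and used Partek Flow 10.0 for median normalization. The deposited values are therefore a signal per gene, estimated counts divided by 1 factor per library. The authors tested with DESeq2. Dividing by the value of 1 read gave whole reads (within 0.01) for 64.2% to 66.4% of values, too few for a count model. Recovered reads served for depth, the floor of 3 reads, read ratios, scaling and voom. Replicate libraries differed by more than sampling noise.

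The fit used limma 3.58.1 (R 4.3.3) with its trend option on log2(value + 1). Benjamini-Hochberg adjustment ran over all 25755 genes. Fold changes on this scale are understated for genes with low values. Every adjusted p is from this fit unless another setting is named, and the fit was checked on simulated data. Exact permutation tests were two-sided. Read ratios have exact conditional binomial intervals. The authors' filter on average coverage was not applied. Gene positions and exon lengths are from GENCODE M21 on GRCm38, promoters from RefSeq GRCm38.p6. Motifs were searched on both strands, and the half-site consensus is part of the full-site consensus.

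The members, gene lists and tests were chosen with earlier results of these data known. Text names all members and, of each list, the called genes (at most the 4 with the largest change) and genes acting directly on a member. Alternatives were pseudocounts of 2, 0.5 and 0.1, filters on a mean value of 10 or on 10 reads in every library, upper-quartile, TMM-like and equal-total scaling, a robust fit, voom, array weights and leaving out each mouse.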

Additional observations from a re-analysis of the deposited data

How the results depend on the processing

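No member was called under any of the 17 alternatives, with the lowest adjusted p by limma at 0.107 for Sesn2 without ON-CR mouse 5. At an unadjusted p at or under 0.05, the count of members was at most 3, under voom (18.8% of all genes) and without ON-CR mouse 5 (17.0%), against 0 as reported (15.6%). The median log2 fold change of the members, 0.12 as reported, was 0.33 under voom and 0.02 to 0.23 with 1 mouse left out at a time. The median of all genes itself moved from 0.03 to 0.151 with equal library totals and to 0.152 under voom, so fold changes are higher by that much there. Of all genes, 861 were called under voom (614 higher and 247 lower), 421 higher and 195 lower with equal totals, and 137 higher and 325 lower without ON-CR mouse 4, against 250 and 290 as reported. Leaving out each mouse gave 67 genes without ON-CR mouse 6 to 854 without ON-CR mouse 5, and 192, 123 and 258 without sham mice 1, 2 and 3.

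The sign of Mdm2 turned with upper-quartile scaling (0.01), TMM-like scaling (0.0053), equal totals (0.12), voom (0.15) and array weights (0.03), that of Ccng1 with equal totals (0.00041) and voom (0.01), that of Cdkn2d with upper-quartile scaling (0.0038), equal totals (0.12) and voom (0.08), and that of Ezh2 under voom (0.02). With 1 mouse left out at a time, log2 fold changes that turned ranged from -0.09 to 0.09 for Mdm2, -0.21 to 0.51 for Cdkn1a, -0.02 to 0.17 for Bax, -0.13 to 0.40 for Gadd45a, -0.08 to 0.31 for Cdkn2c, -0.10 to 0.10 for Cdkn2d, -0.07 to 0.19 for Sesn3, -0.01 to 0.42 for Cdk2 and -0.11 to 0.13 for Bmi1. The cause was not tested. Ccnd1, Top2a, Ccl3 and Ccl4 stayed called in each alternative in which they were fitted, and the other called genes of the pathway lists that the report names lost the call without ON-CR mouse 6, a fit with fewer mice. Of the genes that lost it there, all but Atf3 also did so without at least 1 other mouse. The filters on low values dropped Cdkn2a and Bbc3, which gave no value there. No paired analysis was possible because mice carry different numbers in the groups. Few reads were counted for Cdkn2a and Bbc3, whose summed reads of 9 against 1 and 19 against 9 leave wide intervals.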

Other observations

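The marker lists fixed for the nerve gave these counts by limma at an adjusted p at or under 0.05. Of the microglia and macrophage markers, Aif1 and C1qa were higher after ON-CR, 2 of 10 with a median log2 fold change of 0.55. Of the 10 markers, 7 had a fold change above 0, whereas P2ry12 (-0.35), Tmem119 (-0.27) and Sall1 (-0.07) were below 0. Of the astrocyte markers, S100b was lower, 1 of 8 with a median of 0.21. Their summed value was 187578 to 226311 in sham and 261166 to 294767 in ON-CR mice. Gfap was the largest part of that sum, with means of 114862 in sham and 179241 in ON-CR mice. Of the 8 markers, 5 had a fold change above 0, whereas Gja1 (-0.30) and Slc1a2 (-0.19) were below 0 like S100b. Bcas1, a marker of newly formed oligodendrocytes, was lower, 1 of 7 precursor markers with a median of -0.29, and Cdh1 was lower, 1 of 6 epithelial markers with a median of -1.0. None was called of the lists of infiltrating myeloid cells, lymphocytes, endothelium, pericytes and smooth muscle, meningeal fibroblasts, Schwann cells, neurons, photoreceptors, skeletal muscle and blood.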
